A study of Mus musculus with 8 samples.

Results

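The response of B16F10 cells to interferon-gamma (IFN-γ) was measured in 4 of the 8 samples of the series, those of the control line. B16F10 is a mouse melanoma cell line, and its control derivative carries pLKO, the lentiviral hairpin vector without a hairpin against Drg2. Samples were chosen by their labels alone, as 2 libraries of pLKO cells given IFN-γ at 5 ng/ml for 24 hours and 2 of pLKO cells given none. The other 4 samples are shDRG2 cells, the same line with a hairpin against Drg2, again 2 with and 2 without IFN-γ. They also entered the fit behind every call, in which all 8 libraries set the filter, the scaling and the spread. Their own values are given below only where the pLKO values are set beside them. Each line is represented once. Whether replicates came from separate cultures is not stated, and the p-values cover only the spread among these libraries, which may be technical. Of 45556 named genes, 13500 had enough counts to be tested. Values are in CPM, read counts scaled to a common library size after normalization, and in bulk RNA a change in some cells and a smaller change in all cells cannot be told apart.

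IFN-γ is made by activated T cells and natural killer cells. It binds the receptor chains IFNGR1 and IFNGR2, whose kinases are JAK1 and JAK2. Signalling then acts through gamma-activated sites in DNA to switch on early genes, among them that of the transcription factor IRF1. IRF1 and complexes that hold IRF9 then act through a different sequence, the interferon-stimulated response element. In tumour cells the pathway is known for raising antigen presentation, for attracting T cells, for antiviral and cell-autonomous defence and for inducing PD-L1, the ligand by which cells restrain T cells.

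The pLKO libraries held 27582297 to 32855974 counts. Log CPM of replicates correlated across genes at 0.9921 with and 0.9929 without IFN-γ, a description over genes that are not independent. The label of the cells was checked against markers: all 7 melanoma and melanocyte markers were detected, with a summed level of 12910.5 and 13026 CPM without and 10961 and 11057 CPM with IFN-γ. Of 8 T cell markers 6 were at 0 in each group, Cd3d, Cd3e, Cd3g, Cd4 and Trac in both. Their summed level was 0.183 and 0.0938 CPM without and 1.04 and 0.975 CPM with IFN-γ, and Lck rose. Macrophage and dendritic cell markers summed to 0.794 to 1.41 CPM, with Adgre1, Itgam, Itgax and Fcgr1 at 0 in both groups, and all 4 natural killer cell markers were at 0. Fibroblast markers summed to 26.7 and 29.8 CPM without and 13.5 and 13.7 CPM with IFN-γ, with Dcn at 0 throughout, endothelial markers to at most 2.16 CPM and epithelial markers to at most 0.688 CPM. Of 4 B cell markers 3 were at 0 without and 2 with IFN-γ, Ms4a1 in both. Their summed level was 0.122 and 0.25 CPM without and 1.15 and 0.67 CPM with IFN-γ, and Cd79b rose. Drg2 itself was at 76.3 and 68.6 CPM without and 72.3 and 64.3 CPM with IFN-γ in pLKO cells, against 6.46 to 9.34 CPM in the 4 shDRG2 libraries, so the libraries match their labels.

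IFN-γ changed 28.1% of the genes tested, with 2082 that rose (15.4%) and 1714 that fell (12.7%) at an adjusted p of 0.05 in edgeR's quasi-likelihood test. Both shares are the background for every list count below. The rises were the larger changes: 771 genes rose at least 2-fold, 441 at least 4-fold (3.27%), 211 at least 16-fold and 105 at least 64-fold. Of the falls 325 were at least 2-fold, 84 at least 4-fold and 4 at least 16-fold. These counts set a gene with 0 counts in one group at its lower bound, taken against a floor of 3 counts over that group. The median over all tested genes was 0.01 on the log2 scale. Fitted on the pLKO libraries alone, 1905 genes rose and 1563 fell of 13184 tested. Both the rise count and the fall count were lower when any single pLKO library was left out, which leaves its group without a replicate.

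**Figure D1:**
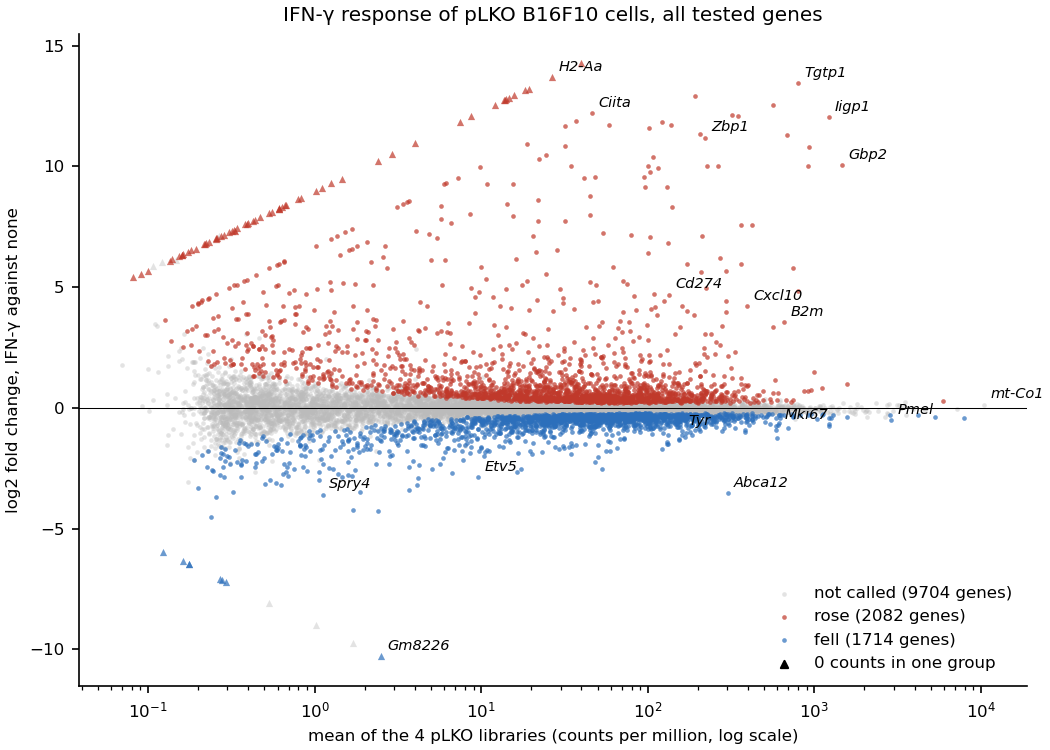
Each point is a tested gene, with its mean over the 4 pLKO libraries in CPM on a log scale (x) and its log2 fold change with IFN-γ (y). Red genes rose, blue genes fell and grey genes were not called. Triangles have 0 counts in one group, so that their height depends on the fit's prior count and is no measured fold. The 2082 rises reach far higher than the 1714 falls reach low.

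The IFN-γ receptor genes Ifngr1 and Ifngr2 did not rise, while several genes downstream of them did. Ifngr1 was at 11.2 and 10.8 CPM without and 9.42 and 10.5 CPM with IFN-γ, with no called change (log2 fold change -0.13, SE 0.12, adjusted p = 0.464). Ifngr2 fell 1.37-fold, from 45.4 and 52.1 to 34.2 and 37 CPM (adjusted p = 0.00394). The kinase genes rose little, Jak1 1.51-fold from 139 and 144 to 216 and 212 CPM, and Jak2 1.9-fold from 49.9 and 52.2 to 94.6 and 99.1 CPM (adjusted p = 0.000194 and 1.28e-05). Stat2, a transcription factor of type I interferon signalling, rose 14.6-fold, from 12.7 and 16.6 to 189 and 238 CPM (adjusted p = 1.63e-08). The 16 tested receptor, JAK and STAT genes gave 9 rises and 3 falls (median 0.47), against 15.4% rises and 12.7% falls over all tested genes. The receptor gene Ifnar2 was among the rises (1.05), while Stat5a, Stat5b and Stat6 were not called. The largest of the falls was that of Il10rb, a chain of the interleukin-10 and interferon-lambda receptors, at -0.55 (adjusted p = 0.00186).

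**Figure D2:**
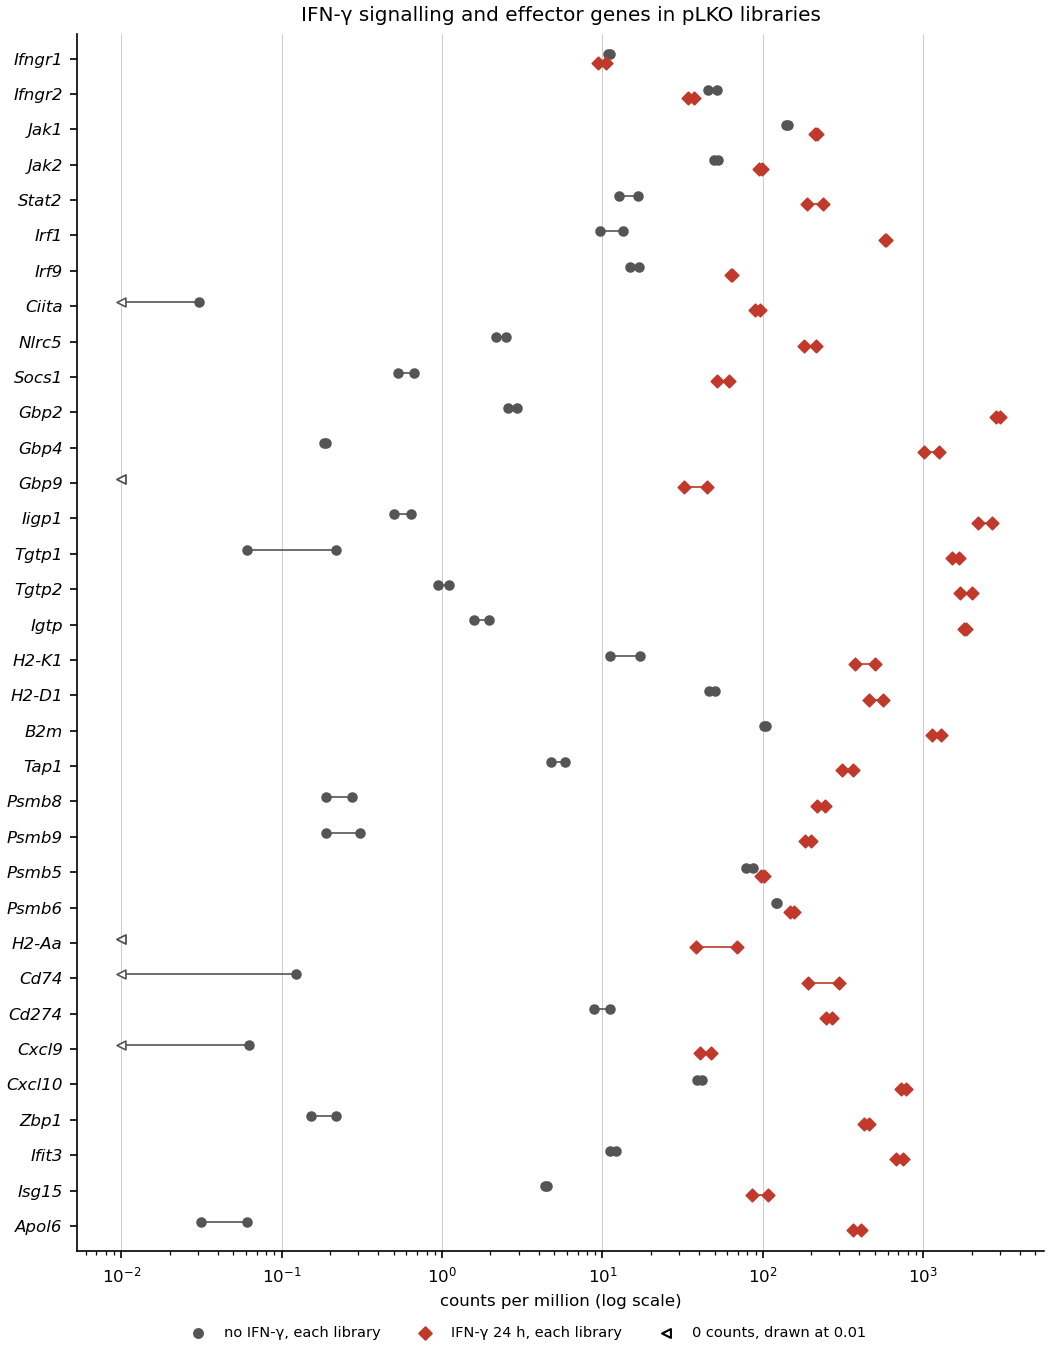
CPM on a log scale (x) of signalling and effector genes in each pLKO library, circles without and diamonds with IFN-γ. Open triangles stand for 0 counts and are drawn at 0.01. The receptor genes Ifngr1 and Ifngr2 do not lie higher with IFN-γ, while the GTPase genes and the class I and class II genes are far apart between the groups, and Psmb5 and Psmb6 lie close.

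Transcription factors of the pathway were among the strongest rises. Irf1 (chromosome 11, 53770014 to 53778374, GRCm38) went from 9.59 and 13.4 to 579 and 582 CPM, or 50.4-fold (5.66, SE 0.15, adjusted p = 1.02e-09). Irf9, the DNA-binding part of a complex with STAT2, rose 4-fold, from 14.8 and 17 to 63.8 and 63.5 CPM. Ciita (chromosome 16, 10480059 to 10528418) encodes the co-activator that MHC class II genes require. It was at 1 count over both untreated libraries and at 89 and 95.4 CPM with IFN-γ, a ratio of 5986 with a 95% counting interval of 1074 to 236472 (adjusted p = 1.34e-10). Nlrc5, the corresponding co-activator of MHC class I genes, rose 84.5-fold, from 2.51 and 2.16 to 181 and 214 CPM (adjusted p = 1.68e-10). In all, 13 of 18 tested interferon regulatory factors and partner factors rose and none fell, with a median of 5.09.

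Feedback inhibitors were mixed. Socs1, which blocks the JAK kinases, rose 92.8-fold, from 0.672 and 0.532 to 51.4 and 61.1 CPM (6.54, SE 0.165, adjusted p = 6.94e-10). Socs3, a related inhibitor, rose 6.47-fold, from 3.85 and 4.79 to 27.4 and 28.5 CPM. Socs2, an inhibitor of growth hormone signalling, fell 2.74-fold, from 3.76 and 5.44 to 1.37 and 1.95 CPM (adjusted p = 0.00248). Ptpn11, the phosphatase SHP-2 and the most abundant of the list, was not called (-0.14, adjusted p = 0.277). Among the 18 tested members there were 5 rises and 4 falls (median 0.03), against 15.4% rises and 12.7% falls over all tested genes. Fewer members fell when any single pLKO library was left out.

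The guanylate-binding proteins and the immunity-related GTPases, families that assemble on the vacuoles of intracellular pathogens, gave the largest gains of reads. All 10 tested guanylate-binding protein genes rose, with a median of 11.91, or 9.89 with the genes at 0 set to their bound. Gbp2 (ENSMUSG00000028270.12, chromosome 3, 142620602 to 142638008) went from 2.57 and 2.94 to 3001 and 2843 CPM, a 1060.1-fold rise (10.05, SE 0.139, adjusted p = 2.13e-11). Gbp4 went from 0.183 and 0.188 to 1011 and 1262 CPM, or 5998-fold (adjusted p = 2.94e-11). Gbp10 went from 0.183 and 0.0938 to 559 and 731 CPM, or 4505-fold, but 84.2% of its 31-base words also occur in the model Gm43302. Gbp8, Gbp9 and Gbp11 had 0 counts in both untreated libraries. They were tested only for their counts with IFN-γ, so that they rose was all but fixed. Other genes also hold 31.2% of the words of Gbp8 and 34.3% of those of Gbp11. With IFN-γ, Gbp9 was at 32.3 and 45 CPM, at least 847-fold higher, Gbp11 at 30.1 and 43.4 CPM, at least 807-fold higher, and Gbp8 at 21.2 and 42.2 CPM, at least 706-fold higher (adjusted p = 3.43e-08, 9.65e-08 and 3.23e-06). Such bounds and counting intervals cover counting error only. Together the 11 listed genes took 0.00104% and 0.00108% of the reads without and 0.692% and 0.774% with IFN-γ.

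Of 12 tested immunity-related GTPase genes 11 rose, with a median of 11.08 (10.43 with genes at 0 set to their bound), and the family took 1.07% and 1.21% of the reads with IFN-γ against 0.00756% and 0.00868% without. Iigp1 went from 0.642 and 0.5 to 2209 and 2679 CPM, or 4245-fold (12.05, SE 0.18, adjusted p = 2.13e-11). Igtp went from 1.59 and 1.97 to 1805 and 1835 CPM, or 1021-fold. Irgm2 rose 192-fold, from 3.79 and 5 to 808 and 877 CPM. Tgtp1 went from 0.0611 and 0.219 to 1504 and 1676 CPM and its near copy Tgtp2 from 1.1 and 0.938 to 1688 and 2013 CPM. The fitted rises of this pair were 11109-fold and 1807-fold, but 92.9% of the 31-base words of Tgtp1 occur in Tgtp2, so the split of reads between both genes is uncertain. Gvin1, the gene of a very large interferon-induced GTPase, had 0 counts without and 20.4 and 38.3 CPM with IFN-γ, at least 652-fold higher, and 99% of its words occur in Gm4070.

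Promoter sequence of these genes was read from RefSeq (GRCm38.p6), from 250 bases before to 50 bases after the annotated start. Both motifs were searched on both strands, the core of the response element as GAAANNGAA and the gamma-activated site as TTCNNNGAA. The stretches below were chosen because they show how both motifs lie in genes that rose strongly. Each is 60 bases, 5′ to 3′ on the gene's strand, with the motif letters in capitals. In 4 GTPase genes of chromosome 11 a gamma-activated site begins exactly 11 bases before the response element, at -45 and -34 from the start in Igtp, -75 and -64 in Irgm2, -88 and -77 in Tgtp1 and -81 and -70 in Tgtp2. The stretches lie at chr11:58199491-58199550 (plus strand), chr11:58214882-58214941 (plus), chr11:48992295-48992354 (minus) and chr11:49064254-49064313 (minus).
Igtp: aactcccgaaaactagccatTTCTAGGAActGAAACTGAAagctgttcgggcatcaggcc
Irgm2: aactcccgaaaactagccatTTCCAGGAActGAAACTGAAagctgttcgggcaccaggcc
Tgtp1: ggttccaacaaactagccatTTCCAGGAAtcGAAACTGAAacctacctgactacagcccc
Tgtp2: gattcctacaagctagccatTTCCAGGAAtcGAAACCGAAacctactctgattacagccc

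The Igtp and Irgm2 stretches share 58 of 60 bases and those of Tgtp1 and Tgtp2 share 46, while the others share 38 to 42, so the 4 are related sequences and not independent examples. This spacing, noticed after the sequences were seen, occurs in 9 of 32851 promoters in the table (0.027%). The 4 genes above were printed for their strong rise and gave the pattern, so that they rose says nothing of it. Of the other genes with this spacing 2 were tested, Gm12185, a predicted gene beside Tgtp1, and Adar, the adenosine deaminase that edits double-stranded RNA (1.38, adjusted p = 2.29e-06). Both rose, as did 15.4% of all tested genes. Gm12185 (12.10, adjusted p = 3.10e-11) lies with Tgtp1 and Tgtp2 among 10 neighbours that all rose at least 4-fold, so it is no independent example. Adar alone decides nothing on the spacing. A match is a description of letters and not evidence of binding.

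Other raised genes held 1 kind of motif or both kinds farther apart. Irf1 holds a gamma-activated site at -90 (chr11:53769899-53769958, plus strand) and no response element in the window. Socs1 holds overlapping response elements at -83 and -77 (chr16:10785582-10785641, minus), and Isg15, which encodes a ubiquitin-like protein, at -78, -72 and -66 (chr4:156200856-156200915, minus). Cd274, the gene of PD-L1, holds 1 at -76 (chr19:29367337-29367396, plus), read on the opposite strand. There 54 bases of the stretch lie in an exon of a noncoding transcript of Plgrkt, on the minus strand. The antiviral gene Ifit3 holds response elements at -155, -121 and -102 (chr19:34583392-34583451, plus; the one at -155 lies outside the printed stretch). Gbp7 holds gamma-activated sites at -106 and -87 and a response element at -52 (chr3:142530241-142530300, plus; the one at -106 lies outside).
Irf1: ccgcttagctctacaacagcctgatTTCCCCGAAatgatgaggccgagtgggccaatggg
Socs1: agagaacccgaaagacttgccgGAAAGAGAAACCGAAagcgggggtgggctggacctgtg
Isg15: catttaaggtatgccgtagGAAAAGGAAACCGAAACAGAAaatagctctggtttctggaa
Cd274: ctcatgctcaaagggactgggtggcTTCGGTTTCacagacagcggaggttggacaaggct
Ifit3: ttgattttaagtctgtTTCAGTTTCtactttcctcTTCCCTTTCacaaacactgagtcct
Gbp7: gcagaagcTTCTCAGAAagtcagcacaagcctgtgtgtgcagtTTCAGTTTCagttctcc

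Across genes, the response element core was more frequent among raised genes. Of 1968 protein-coding genes that rose, 1587 (80.6%) have a promoter in the table, and 239 of these (15.1%, exact 95% interval 13.3 to 16.9) hold the core in at least 1 promoter. Among 6592 genes with no called change the share was 7.37%, and 8.56% of all 32851 promoters hold it. The gamma-activated site stood in 11.3% of the raised genes (9.76 to 12.9) and in 8.07% of those not called, against 8.3% of all promoters. The mean G+C content of these promoters was 59% in raised genes and 61% in genes not called, and its part in the shares was not tested. Genes that rose by 4-fold to 16-fold, of which 82.5% have a promoter in the table, held the core in 21.2%, and those that rose less than 2-fold (82.4%) in 10.5%. For genes that rose by 2-fold to 4-fold or by 16-fold or more, and for genes that fell, under 80% have a promoter in the table, so their shares are not given.

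Transcripts of all tested MHC class I chains and of most immunoproteasome subunits rose, and those of the loading machinery rose in part. B2m, the light chain common to class I molecules (chromosome 2, 122147686 to 122153083), went from 102 and 105 to 1136 and 1293 CPM, or 11.7-fold (3.55, SE 0.11, adjusted p = 3.55e-09). The classical heavy chain genes H2-K1 and H2-D1 rose 30.9-fold, from 11.2 and 17.1 to 374 and 499 CPM, and 10.6-fold, from 46.2 and 50.6 to 461 and 562 CPM (adjusted p = 7.29e-08 and 7.90e-09). These genes share 12.9% to 16.2% of their words with each other. The nonclassical gene H2-T23, which encodes the ligand of the NKG2A receptor, rose 319-fold, from 0.703 and 1.03 to 261 and 294 CPM. H2-Q4 had 0 counts without and 3.78 and 5.85 CPM with IFN-γ, at least 106-fold higher, and 38.5% of its words occur in other genes. All 11 tested class I chains rose, with a median of 4.95, or 4.85 with genes at 0 at their bound.

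Peptide transport and the proteasome showed a divide between inducible and constitutive parts. Tap1 and Tap2, the 2 chains of the peptide transporter, rose 63.3-fold, from 4.8 and 5.88 to 364 and 311 CPM, and 115-fold, from 1.92 and 2.63 to 261 and 264 CPM (adjusted p = 4.22e-10 and 2.03e-10). The chaperone gene Calr of the same list was not called (1866 and 1652 against 1773 and 1596 CPM, -0.06, adjusted p = 0.664). Of 12 loading genes 6 rose and none fell, with a median of 0.22. Immunoproteasome subunits replace the constitutive catalytic subunits and alter which peptides are cut. Psmb8 went from 0.275 and 0.188 to 218 and 243 CPM, or 977-fold, and Psmb9 from 0.306 and 0.188 to 182 and 200.1 CPM, or 761-fold (adjusted p = 1.83e-10 and 2.94e-11). Psmb10 rose 49-fold, from 9.2 and 7.51 to 427 and 393 CPM. Their constitutive counterparts moved little: Psmb6 rose 1.25-fold (120.2 and 122 to 147 and 157 CPM, adjusted p = 0.0105), Psmb5 1.21-fold (86.8 and 78.8 to 102 and 98 CPM, adjusted p = 0.0316), and Psmb7 was not called (0.21, adjusted p = 0.0844). The call of Psmb6 was lost without IFN-γ replicate 2 (adjusted p = 0.0812) or untreated replicate 1 (0.0755). That of Psmb5 was lost without IFN-γ replicate 1, IFN-γ replicate 2 or untreated replicate 2 (adjusted p = 0.108, 0.0732 and 0.184). Psme3, an activator subunit of the nucleus, was not called either (-0.10, adjusted p = 0.538). Of the words of Psmb5, 61.7% also occur in Gm3375.

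MHC class II genes, which most non-immune cells keep silent, were switched on. H2-Aa (chromosome 17, 34282744 to 34287823) had 0 counts in both untreated libraries and was at 38.3 and 68.9 CPM with IFN-γ, at least 1189-fold higher (adjusted p = 4.75e-07). Cd74, the invariant chain that guides class II molecules, went from 0.122 and 0 to 192 and 298 CPM, with 4 counts in all without IFN-γ (11.86, SE 0.439, adjusted p = 1.31e-08). The 14 tested class II genes gave 10 rises and 1 fall (median 6.80, or 5.92 with genes at 0 at their bound). The fall was that of Ifi30, a lysosomal thiol reductase, at 1.66-fold (25.2 and 23.9 to 15.2 and 14.5 CPM, adjusted p = 0.0012). Its symbol belongs to a processed-transcript model in the annotation used here.

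Checkpoint ligands and chemokines rose in part. Cd274 went from 8.86 and 11.2 to 248 and 269.8 CPM, or 25.8-fold (4.69, SE 0.117, adjusted p = 6.31e-10). Of 12 tested checkpoint ligand genes 6 rose, H2-T23 by the most, and none fell (median 0.62). Pdcd1lg2, the gene of PD-L2, was not among the genes with enough counts. Cxcl10 and Cxcl9 encode ligands of CXCR3, the receptor that draws activated T cells. Cxcl10 was expressed without IFN-γ at 42 and 38.7 CPM and rose 18.6-fold to 778 and 723 CPM (4.22, SE 0.0985, adjusted p = 3.82e-10). Cxcl9 had 2 counts without IFN-γ and was at 40.8 and 47.8 CPM with it, a ratio of 1444 with a 95% counting interval of 399 to 11932 (adjusted p = 9.27e-06). Of 12 tested chemokine and cytokine genes 10 rose and none fell (1 without IFN-γ replicate 1), with a median of 2.55, while 12 of the 31 listed had 0 counts in all 8 libraries.

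Genes usually studied as type I interferon targets rose almost without exception. All 9 oligoadenylate synthetase and RNase L genes rose (median 3.12), led by Oas3, which senses double-stranded RNA and went from 0.0917 and 0.125 to 35.8 and 52.3 CPM, or 393-fold. Oasl2 rose 145-fold to 150.2 and 164 CPM. Of 34 IFIT, Mx and other antiviral effector genes 33 rose and none fell, with a median of 4.14, or 3.71 with genes at 0 at their bound. Ifit3, of the IFIT family, rose 61.4-fold, from 12.1 and 11.1 to 675 and 747 CPM, with 61.8% of its words also in its copy Ifit3b. Phf11b had 1 count without IFN-γ and was at 5.15 and 8.31 CPM with it, a ratio of 446 (79.6 to 17647). Of its words 44.5% also occur in Phf11a, which rose as well. All 7 genes of ISG15 and its conjugation rose (median 4.03): Isg15 went from 4.4 and 4.54 to 85.4 and 107 CPM, its activating enzyme Uba7 rose 46.7-fold, and the ligase gene Herc6 rose 8.36-fold to 364 and 424 CPM.

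Of 19 tested genes listed as RNA and DNA sensors 17 rose and 2 fell (median 4.94). The list also holds the adaptor genes Mavs and Myd88 and the genes Tlr4 and Nod1, whose products sense bacterial components. Zbp1, which binds left-handed nucleic acid and can trigger necroptosis, went from 0.153 and 0.219 to 426 and 462 CPM, or 2342-fold (11.19, SE 0.183, adjusted p = 2.94e-11). Tlr4, the receptor for bacterial lipopolysaccharide, fell 1.55-fold, from 23.1 and 21.7 to 15.3 and 13.6 CPM (adjusted p = 0.00405). Of 10 genes listed as interferon-induced PARPs 8 rose, among them Dtx3l, which encodes a ubiquitin ligase and no PARP. Parp14 rose 74-fold, from 6.39 and 8.01 to 512 and 553 CPM, and Parp12 rose 15.6-fold. The list was picked for induction and is not the whole family. Parp1, the DNA repair member, fell 1.33-fold (adjusted p = 0.00372). All 5 tested apolipoprotein L genes rose, with a median of 8.11 (7.26 with genes at 0 at their bound). Of the 12 listed, 5 had 0 counts in all 8 libraries. Apol6, Apol7a and Apol10b had at most 3 counts without IFN-γ and were tested only for their counts with it, so their rise was all but fixed. Apol6 had 3 counts without IFN-γ and was at 363 and 410.1 CPM with it, a ratio of 8383 (2868 to 40654, adjusted p = 3.98e-11). Among 25 TRIM ubiquitin ligase genes 11 rose and 4 fell (median 0.10), against 15.4% and 12.7% over all tested genes. Fewer of them fell without IFN-γ replicate 2 or either untreated library. Trim30d rose 56.8-fold to 16.8 and 22.2 CPM, while Trim28, a co-repressor and the most abundant member, was not called (-0.17, adjusted p = 0.411).

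Cell death genes rose in part, against 15.4% rises and 12.7% falls over all tested genes. Of 22 caspase, gasdermin and necroptosis genes 13 rose and none fell (median 0.46), Casp12 from 2 counts to 21.9 and 21.4 CPM, a ratio of 700.0 (193 to 5786). The survival gene Mcl1 was not called (0.02, adjusted p = 0.915). Of 12 death receptor genes 7 rose and 1 fell. Tnfsf10, the gene of TRAIL, rose 199-fold from 0.0917 and 0.0313 to 9.75 and 16.4 CPM, and Fas, a death receptor, rose 17.9-fold but only to 1.11 and 1.77 CPM. Cflar, which blocks caspase-8, rose 1.6-fold, while Tnfrsf10b, the mouse TRAIL receptor, fell 1.45-fold (adjusted p = 0.0114). That fall was lost without IFN-γ replicate 2 (adjusted p = 0.0844) or untreated replicate 2 (0.0782).

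The next 3 lists stand against 15.4% rises and 12.7% falls over all tested genes. Of 19 interferon-linked metabolic genes 8 rose and 2 fell, and fewer fell when any single pLKO library was left out. Nampt, of NAD synthesis, rose 4.4-fold to 495 and 498 CPM (adjusted p = 1.07e-08). Ido1, which degrades tryptophan, reached only 1.37 and 0.914 CPM from 2 counts, a ratio of 36.2 (9.65 to 305). Ass1, of arginine synthesis, fell 2.45-fold, from 107 and 98.8 to 47.8 and 36.4 CPM (adjusted p = 2.32e-05). Pseudogene Gm5424 holds 61.5% of the words of Ass1. Of 12 complement genes 7 rose, with Serping1, the C1 inhibitor, at 0 counts without and 5.12 and 6.49 CPM with IFN-γ (at least 127-fold), and 1 fell, Masp1, 2.45-fold (adjusted p = 0.0014). Of 21 NF-κB genes 8 rose and 2 fell (median 0.21), with 5 rises without IFN-γ replicate 2 or untreated replicate 1 and none to 1 fall without any single pLKO library. Bcl3, a nuclear cofactor, rose most, 4.92-fold at under 1.1 CPM in every library.

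The 12 largest falls among genes averaging at least 5 CPM were led by Abca12, a lipid transporter of the ABC family (ENSMUSG00000050296.14, chromosome 1, 71242276 to 71414910). It went from 608 and 508 to 52.4 and 45.3 CPM, an 11.5-fold fall (-3.52, SE 0.145, adjusted p = 3.26e-08). Etv5, an ETS factor switched on by ERK signalling, fell 7.36-fold, from 21.1 and 12.6 to 2.93 and 1.71 CPM, and 32.3% of its words occur in Gm4798. Nr4a1, an immediate-early nuclear receptor, fell 6.41-fold, from 10.4 and 12.7 to 1.67 and 1.92 CPM. Spsb4 fell 6.38-fold, from 32.2 and 24.3 to 4.97 and 3.93 CPM, and Car6, a secreted carbonic anhydrase, 5.84-fold, from 107 and 75.2 to 19.8 and 11.6 CPM. The others were Ttn, which encodes titin, and the heparan sulfate sulfotransferase gene Hs3st1 (each 5.8-fold), the prokineticin receptor gene Prokr1 (5.07-fold), Igsf3 (4.79-fold), Trim71 (4.45-fold), Spry2 (4.2-fold) and the ciliary neurotrophic factor receptor gene Cntfr (4.13-fold). Their adjusted p ran from 1.07e-08 for Igsf3 to 0.000294 for Ttn. The groups overlapped in none of these 12, nor in any other called gene. With so few libraries in each group a call all but requires this, so it adds no support to the calls.

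**Figure D3:**
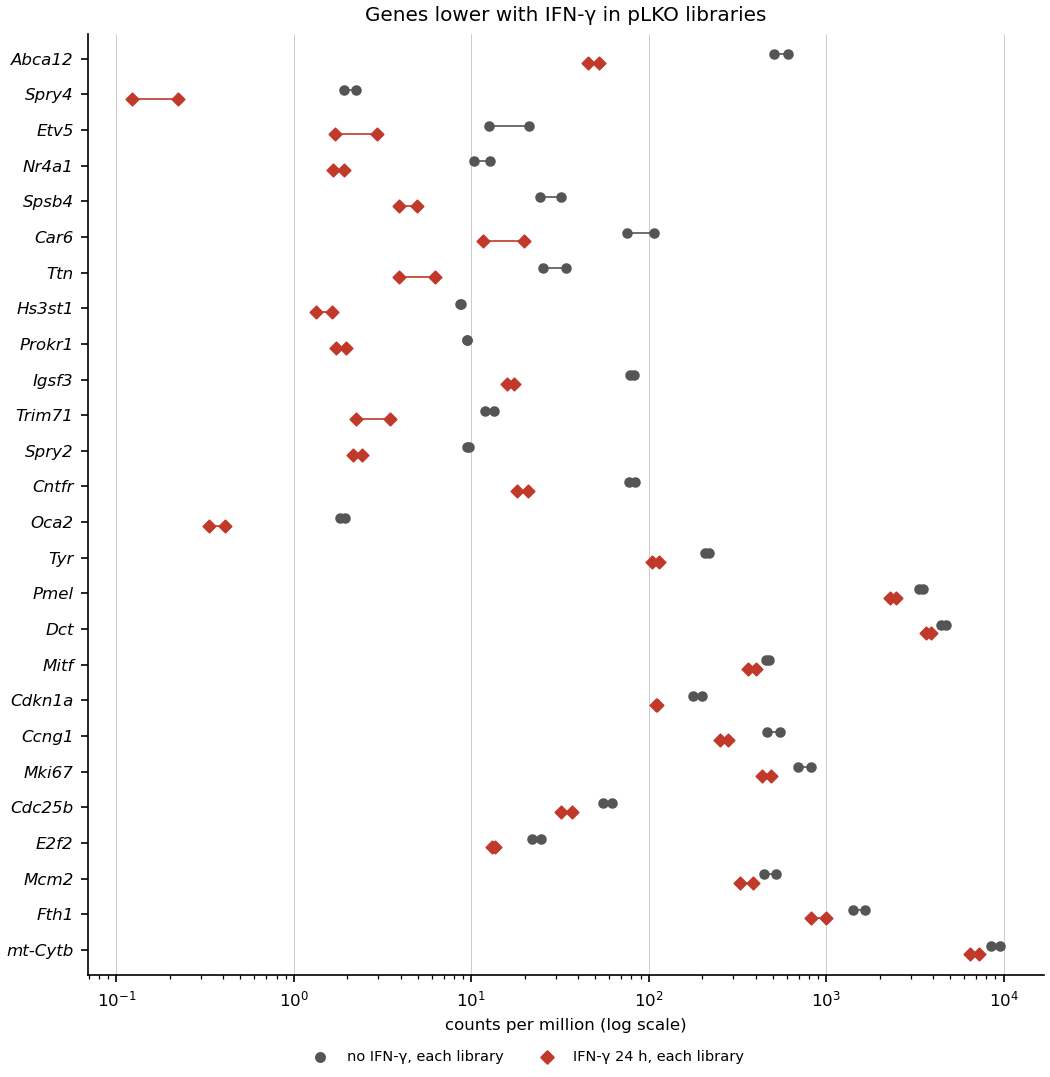
CPM on a log scale (x) of 26 genes that were lower with IFN-γ in each pLKO library, circles without and diamonds with IFN-γ. Abca12, Spry4 and Etv5 are widely separated, while Pmel, Dct and Mcm2 moved by small steps.

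Genes reporting on the ERK pathway, which is overactive in most melanomas, fell more often than they rose. Of 25 tested ERK output and immediate-early genes 13 fell and 5 rose (median -0.53), against 12.7% falls and 15.4% rises over all tested genes. Spry4 and Spry2, ERK-induced inhibitors of the pathway, fell 12-fold, from 2.23 and 1.91 to 0.222 and 0.122 CPM, and 4.2-fold, from 9.75 and 9.42 to 2.41 and 2.16 CPM (adjusted p = 0.000178 and 3.84e-05). Atf3, a stress-induced factor, rose 6.03-fold, from 3.42 and 4.94 to 26.3 and 24.2 CPM. Dusp6, an ERK phosphatase that ERK signalling induces, rose 1.72-fold, from 118 and 116 to 206 and 197 CPM (adjusted p = 0.000203). The immediate-early factor genes Jun and Fosl2 rose 2.2-fold and 2.17-fold, and all 3 were named after their values were seen. Phlda1, the most abundant member, was not called (-0.26, adjusted p = 0.262), nor was Myc (103 and 108 against 117 and 101 CPM, adjusted p = 0.727).

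Most pigment genes fell. Of 20 tested pigment enzyme and melanosome genes 14 fell and 1 rose, with a median of -0.54, against 12.7% falls over all tested genes. Among them 11 to 13 fell when any single library was left out. The melanin enzyme gene Tyrp1, a member outside the naming rule, was not called (3269 and 2987 against 3469 and 3253 CPM, adjusted p = 0.452). Tyr, the rate-limiting enzyme of melanin synthesis (chromosome 7, 87424771 to 87493512), fell 1.94-fold, from 207 and 219.7 to 105 and 115 CPM (-0.96, SE 0.0901, adjusted p = 2.45e-05). Oca2, a melanosomal membrane protein, fell 5.07-fold, from 1.83 and 1.94 to 0.408 and 0.335 CPM. Pmel, which forms the melanosome's fibrils, fell 1.43-fold, from 3498 and 3346 to 2481 and 2291 CPM (adjusted p = 0.00176). Dct, a later melanin enzyme, fell 1.21-fold, from 4466 and 4716 to 3659 and 3911 CPM (adjusted p = 0.0351). Gpnmb, a melanosome and lysosome glycoprotein, rose 1.21-fold (adjusted p = 0.041). Mitf, the master regulator of these genes, fell 1.22-fold, from 456 and 477 to 362 and 401 CPM (adjusted p = 0.042). Leaving out any single pLKO library ended the calls of Dct (adjusted p = 0.058 to 0.204), Gpnmb (0.0722 to 0.175) and Mitf (0.0515 to 0.242). Sox10, the neural crest factor that acts with MITF, was not called (-0.22, adjusted p = 0.13), but was with upper-quartile scaling (adjusted p = 0.0487) and with library size only (0.0413). Of 11 melanocyte transcription factors 3 fell, Sox5 most at 1.87-fold (adjusted p = 4.10e-05), and Zeb2 rose 1.38-fold, while 1 fell without untreated replicate 1.

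Cell cycle genes also fell, none of them 2-fold. Of 42 DNA replication and S phase genes 19 fell and 1 rose (median -0.33), and of 45 G2/M and mitosis genes 23 fell and none rose (median -0.31), with the background of falls at 12.7%. Mki67, a marker of cycling cells, fell 1.65-fold, from 819.9 and 696 to 434 and 487 CPM (-0.72, SE 0.157, adjusted p = 0.00668, or 0.055 without untreated replicate 1). Cdc25b, a phosphatase of mitotic entry, fell 1.7-fold, from 62.2 and 55.1 to 36.9 and 32 CPM, and E2f2, an S phase factor, 1.74-fold, from 22 and 24.7 to 13.1 and 13.7 CPM. Mcm2, a subunit of the replicative helicase, fell 1.36-fold, from 523 and 449 to 389 and 326 CPM (adjusted p = 0.0136). Its call was lost without IFN-γ replicate 2 (0.106) or untreated replicate 1 (0.109). Both counts rested on those libraries. Without IFN-γ replicate 2 there were 6 S phase and 7 G2/M falls, and without untreated replicate 1 there were 6 and 6. The S phase rise was lost without IFN-γ replicate 1, either untreated library or the first shDRG2 library given IFN-γ.

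Genes listed as p53 targets fell rather than rose. Of 29 tested members 15 fell and 3 rose (median -0.28), against 12.7% and 15.4% over all tested genes, and 1 rose without untreated replicate 1. Cdkn1a, the cell cycle inhibitor p21, fell 1.72-fold, from 178 and 201 to 111 and 109.9 CPM (-0.78, SE 0.0803, adjusted p = 4.63e-05). Ccng1, a cyclin G induced by p53, fell 1.89-fold, from 549 and 462 to 281 and 253 CPM, and Perp, a desmosomal protein, 2.9-fold, from 7.52 and 5.35 to 2.41 and 2.04 CPM. The largest rise of the list was that of Fas, which also stands among the death receptors.

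Other lists moved little or both ways. Beside their counts stand the shares over all tested genes, of which 15.4% rose and 12.7% fell. Of 75 cytosolic ribosomal protein genes 1 rose, Rps20 at 0.23 (adjusted p = 0.0315), a call that was lost without any single pLKO library (0.0739 to 0.155). None of 12 housekeeping genes (1 without either shDRG2 library given IFN-γ) and none of the 4 DRG GTPase and partner genes was called, with Drg2 at -0.09 (SE 0.0985, adjusted p = 0.567). Before adjustment, 5185 of all tested genes had p below 0.05. Of 35 glycolysis and hypoxia genes 3 rose and 3 fell, with no rise without untreated replicate 1 and 5 without untreated replicate 2. There was 1 fall without IFN-γ replicate 1, untreated replicate 2 or the second shDRG2 library given IFN-γ. Gapdh was at 4058 and 3907 against 4018 and 3599.9 CPM. Of 33 genes of the unfolded protein and integrated stress response 5 rose and 3 fell (median 0.05), led by the factor gene Cebpb, up 2.69-fold. Without IFN-γ replicate 1 or 2 or untreated replicate 1 there were 3 such rises, and without IFN-γ replicate 2 or untreated replicate 2 there was 1 fall. Of 25 cholesterol synthesis genes 10 rose and none fell (median 0.25). Ebp, a sterol isomerase, rose most, 1.81-fold from 62.8 and 62.4 to 121 and 105 CPM, and 5 to 6 rose without IFN-γ replicate 1 or either untreated library. Of 33 matrix and adhesion genes 13 fell and 7 rose (median -0.21), with Lamb1, a laminin chain, down 4.26-fold at about 1 CPM and Itga2, a collagen receptor chain, up 5.85-fold at under 1 CPM. Without any single pLKO library 3 or 4 members rose. Lamb1 lost its call without IFN-γ replicate 2 (adjusted p = 0.114) or untreated replicate 1 (0.106), and Itga2 likewise (0.0736 and 0.0543).

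**Figure D4:**
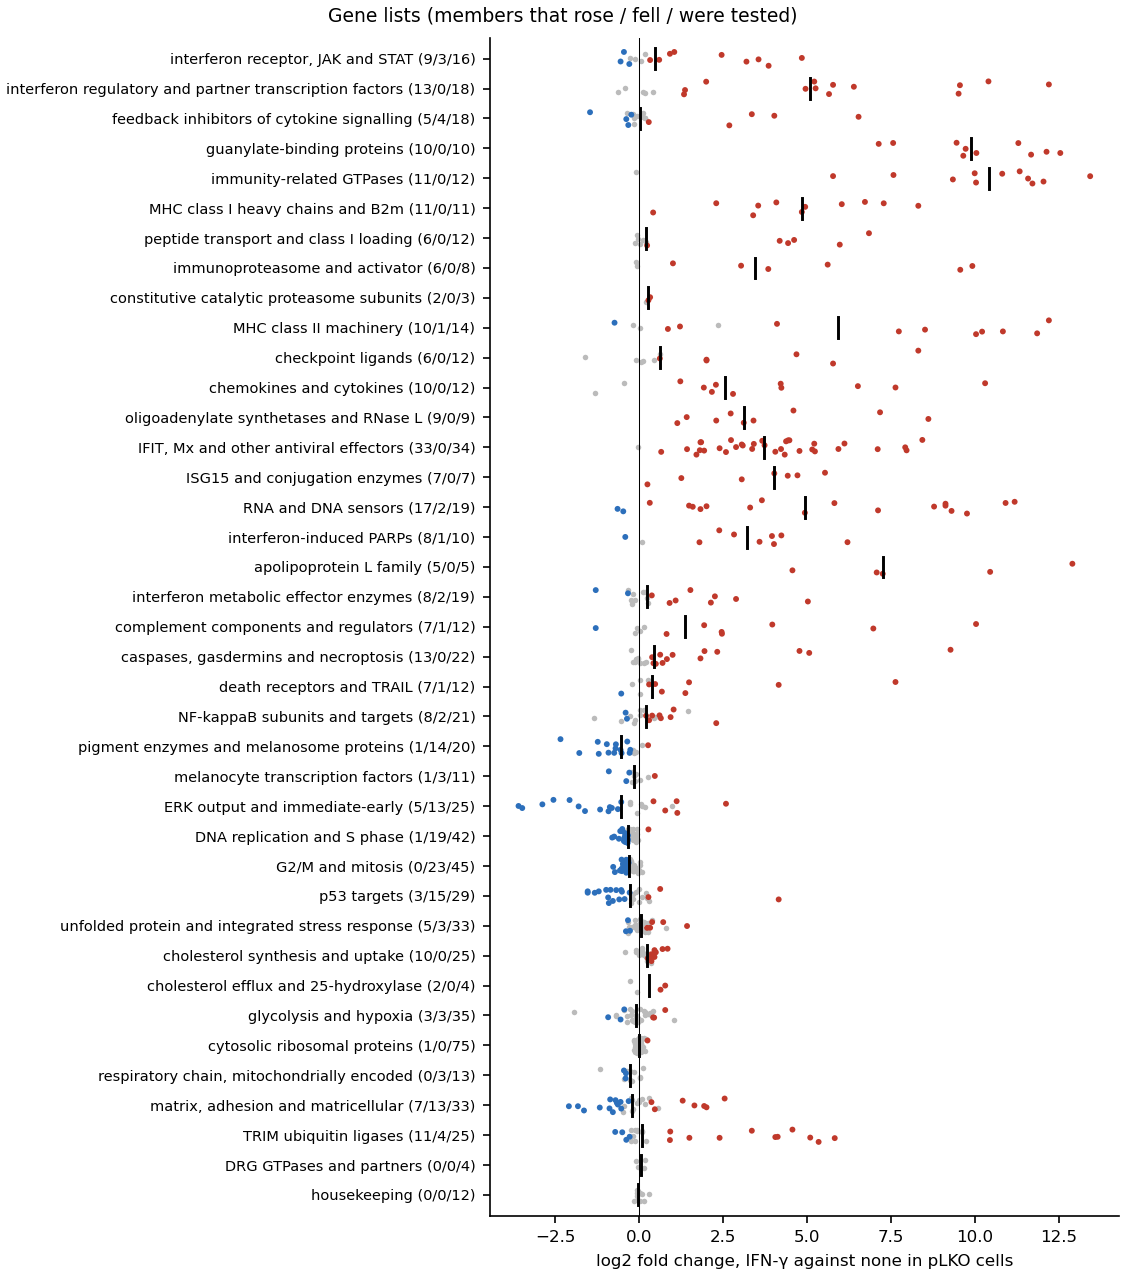
Each row is one gene list, with its members that rose, fell and were tested in brackets. Points are the log2 fold changes of its tested members in pLKO cells (x), red where they rose, blue where they fell and grey where not called. Genes at 0 in one group are drawn at their bound. Black bars are medians, from 10.43 for the immunity-related GTPases to -0.54 for the pigment genes.

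As shares of reads, the 441 genes that rose at least 4-fold went from 0.24% and 0.266% to 4.64% and 5.15%. The 1641 smaller rises went from 9.47% and 9.81% to 13.8% and 14.1%. The 1389 falls under 2-fold went from 18.3% in both libraries to 13.3% and 13%. Among the 6 largest gains of CPM were those of Gbp2, Iigp1, Tgtp2, Igtp and Tgtp1. Among the 6 largest losses were Pmel and Dct, given above, and the ferritin heavy chain gene Fth1, which fell 1.69-fold, from 1651 and 1420.1 to 998 and 820.0 CPM (adjusted p = 0.000634). The lipid desaturase gene Scd2 fell 1.24-fold (3147 and 3146 to 2681 and 2386 CPM, adjusted p = 0.0377). Mitochondrial mt-Cytb fell 1.32-fold (9584 and 8514 to 6455 and 7232 CPM, adjusted p = 0.0105) and mt-Nd1 1.31-fold (6751 and 5259 to 4777 and 4415 CPM, adjusted p = 0.0434). Without single pLKO libraries these last 3 calls reached an adjusted p of 0.236, 0.0903 and 0.298. Of 13 mitochondrially encoded genes 3 fell, against 12.7% of all tested genes, and this number moved both ways when single libraries were left out. The most abundant, mt-Co1, was not called (11144 and 8722 against 9936 and 11824 CPM).

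A set of genes went from no reads to detection. Of the genes that rose, 61 had 0 counts in both untreated libraries, 18 of them predicted or clone names, and a further 77 had 1 to 3 counts. Of the 61, 41 also had 0 counts in both untreated shDRG2 libraries. The one with most counts was 9930111J21Rik2, at 51.5 and 107 CPM with IFN-γ and at least 1768-fold higher, followed by H2-Aa, Gbp9, Gbp11 and Gbp8. For 9930111J21Rik2 52.8% of its words occur in the neighbouring 9930111J21Rik1. A further pair among the 12 largest rises had 0 counts without IFN-γ. Ly6a, a surface protein of the Ly6 family, reached 24.5 and 30.9 CPM (at least 604-fold), and Mpeg1, the pore-forming perforin-2, 27.2 and 29.5 CPM (at least 613-fold). In contrast, 8 genes that fell had 0 counts in both IFN-γ libraries.

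Many strongly raised genes were neighbours. Of the 441 genes that rose at least 4-fold, 421 could be placed in GENCODE M21, and 100 of these (23.8%) stood in 21 runs of at least 3 such genes whose consecutive starts lay within 100 kb on one chromosome. The longest run held 10 genes on chromosome 11 (48861968 to 49135387), from Irgm1 through Tgtp1 and Tgtp2 to Ifi47, and all 10 tested genes inside it rose at least 4-fold, with values from 4.39 to 13.44. On chromosome 17 (34119541 to 34316674) 9 of 10 tested genes formed a run, H2-DMa, H2-DMb1, Psmb9, Tap1, Psmb8, Tap2, H2-Ab1, H2-Aa and H2-Eb1, and the tenth was H2-DMb2. A run of 6 guanylate-binding protein genes lay on chromosome 5 (105014150 to 105346472) and one of 4 on chromosome 3 (142493978 to 142638008). Chromosome 7 held 6 TRIM genes (104244457 to 104507849), and chromosome 5 held Cxcl9, Cxcl10 and Cxcl11 within 44.1 kb (92321347 to 92365485). On chromosome 1 a run of 8 genes with predicted or clone names lay at 84963669 to 85327306, and one of 5, Gm2666, Gm16094, Sp110, Sp140 and Sp100, at 85484252 to 85709998. Genes in a run often share sequence, so their counts are not independent. The share of other tested genes in such runs was not counted, so the 23.8% is a description only.

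Most genes that changed in pLKO cells also changed in shDRG2 cells given the same IFN-γ. There 2182 genes rose (16.2%) and 2051 fell (15.2%), or 1443 and 1277 without the first shDRG2 library given IFN-γ. Of the pLKO rises 1766 also rose in shDRG2 cells, which is 84.8% of the pLKO and 80.9% of the shDRG2 rises. Of the pLKO falls 1485 also fell, or 86.6% and 72.4%. The 441 rises of at least 4-fold included 425 that also rose. Across the 13500 genes the 2 sets of log2 fold changes, which come from separate libraries but share 1 model, had a Pearson correlation of 0.915. Tested directly, the difference between the responses was called for 1 gene (0.00741%), Gm8226, with p below 0.05 before adjustment for 321 genes and 9 genes called by DESeq2. A difference that was not called does not show equal responses.

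**Figure D5:**
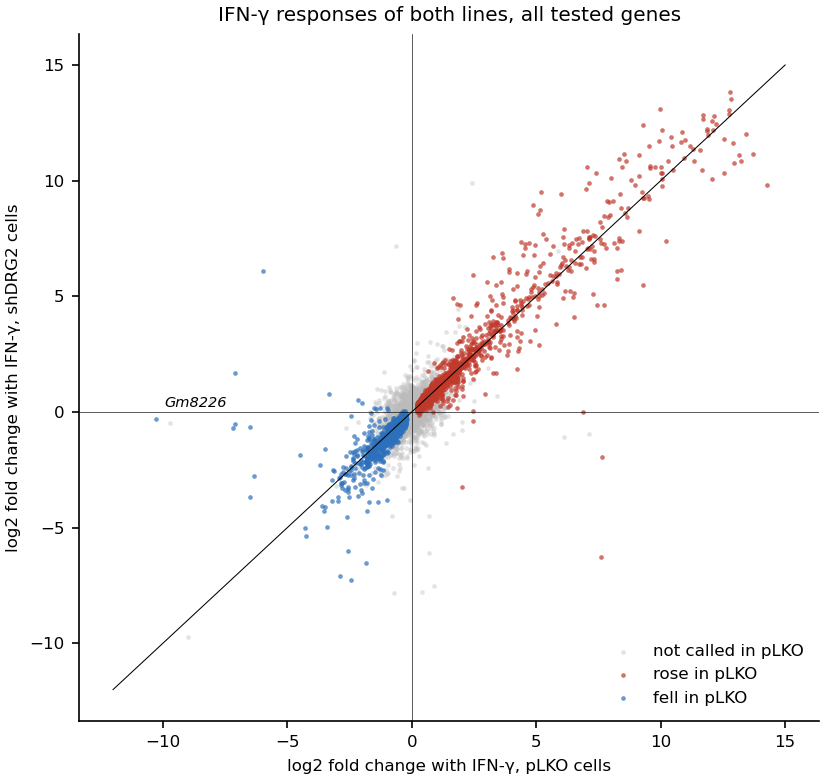
Log2 fold change with IFN-γ in pLKO cells (x) and in shDRG2 cells (y) for 13500 tested genes, coloured by their call in pLKO cells. The line marks equal values. The correlation across genes is 0.915, and fitted values of genes with 0 counts in a group depend on the prior count. Gm8226 is the gene whose difference was called.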

How the data were processed

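RNA sequencing of 8 libraries was used, 2 in each of 4 groups. The values the authors deposited are expected counts (estimated counts per gene, 86.4% whole within 0.0015), made per the submitters' processing notes with STAR, Salmon 1.5.2 and mm10, with settings, strandedness and annotation not given in the sources used here. From 45583 entries, 27 with names turned into dates (0.204% to 0.212% of counts) were left out.

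Counts were rounded and fitted in R 4.3.3 with edgeR 4.0.16 (filterByExpr, TMM, quasi-likelihood F test, two-sided, 1 coefficient per group over all 8 libraries, 4 residual degrees of freedom), with Benjamini-Hochberg adjustment over 13500 genes at 0.05. Fold changes come from this fit, with n = 2 per group. Each SE was worked back as the size of the log2 fold change divided by the square root of its F statistic. With 0 counts in a group a fold is a bound at 3 counts over the group, and with 1 to 3 a ratio with its 95% interval. The procedure was tested on simulated data. Alternatives were other scalings (RLE, upper quartile, library size), filters, DESeq2 1.42.0, a fold threshold of 2 with glmTreat, pLKO libraries only, a replicate block and leaving out each library.

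Samples were grouped by their labels; the comparison, gene lists and naming rules were chosen with earlier results of these data known. The text names, among called genes of at least 5 CPM, the 12 largest rises and falls (predicted and clone names aside), the 6 largest CPM gains and losses, the 5 genes with most counts from 0, of each of 39 lists the largest rise, the largest fall and the most abundant member, defining pathway genes, genes of printed promoters and genes whose response differed between lines; genes named in the runs, with the motif spacing and among markers fall outside that rule. Older list names were matched through RefSeq synonyms in 8 cases. Shared sequence is the share of 31-base words of a gene's longest GENCODE M21 transcript found in other genes. Of the named entries 91.8% matched 1 gene in GENCODE M21. Some genes that the rule selects are not reported here.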

Additional observations from a re-analysis of the deposited data

Results flagged for a closer look

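Gm8226, a processed pseudogene (chromosome 9, 84423984 to 84424781), was singled out because its IFN-γ response differed between both lines, by edgeR's test of the difference (adjusted p = 0.00478). In pLKO cells it went from 5.29 and 4.75 CPM to 0 in both libraries, at least 100.1-fold lower. In shDRG2 cells it was at 11.4 and 12.2 CPM without and 11.4 and 7.58 CPM with IFN-γ (log2 fold change -0.32, adjusted p = 0.252). All of its 31-base words (100%) also occur in the pseudogene Rpl7a-ps11, so its reads cannot be assigned with certainty. With 2 libraries a group, no sample was tested for standing apart from its group.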

How the results depend on the processing

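With the replicate block (the replicate number as a term), 2707 genes rose and 2459 fell in pLKO cells while falls went from 3 to 7 for mitochondrially encoded, 3 to 7 for stress response, 2 to 4 for metabolic and 3 to 5 for melanocyte factor genes, stress response rises from 5 to 9, and glycolysis rises and falls from 3 to 6 each; Psmb7 and Sox10 were called (adjusted p = 0.0208 and 0.0166). Deviations of same-numbered samples correlated at 0.107 to 0.274; the labels give the numbers no shared origin. By construction a fold threshold of 2 left fewer calls, 513 rises and 106 falls in pLKO cells, 538 and 161 in shDRG2 cells, and 11 list falls. Leaving out each library gave 1400 to 2144 rises and 1020 to 1668 falls in pLKO cells, 1443 to 2259 and 1277 to 2114 in shDRG2 cells, 75 to 124 list falls, and 0 to 1 gene with a more positive response in pLKO cells. The difference between responses was called for 6 and 3 genes with DESeq2, 37 and 21 without a filter, and 1 and 1 with the replicate block. Scaling changed the split, with 1855 rises and 2129 falls under upper-quartile and 1840 and 2054 under library size. The cause of these changes was not tested. Bases before the start only held the response element core in 12.4% of raised genes (6.51% of genes not called), the shorter core AANNGAAA stood in 29.8% (19.5%; 23.9% of all promoters), the looser site TTNCNNNAA in 39.8% (32.6%; 36.6%), and genes with 1 promoter, an alternative chosen after seeing the data, held the gamma-activated site in 9.61% (6.69%). Of 119 named called genes 74 were called under every setting run, and none changed direction. On 2 libraries a group, small changes are the least certain.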
